A study of Homo sapiens with 9 samples.

Results

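The nuclear-encoded respiratory chain was followed in PANC-1, an established cell line from a human pancreatic tumour, during combined nutrient and oxygen deprivation. The genes were taken by name: NDUF symbols for complex I and its assembly, SDHA to SDHD for complex II, UQCR symbols and CYC1 for complex III, COX4 to COX8 symbols for complex IV, and ATP5 symbols for complex V. The rule found 102 of the 27800 gene symbols of the table. Of these, 95 are genes of the chain, namely 86 subunits and their isoforms, 8 complex I assembly factors and ATP5S, and 7 are antisense, readthrough or pseudogene symbols described separately. Expression reached at least 1 TPM (a relative transcript level, scaled for transcript length and for the total of the library) in at least 3 of 9 libraries for 89 of the 95, and these 89 were tested. The other 6 were the isoforms COX4I2, COX6A2, COX7A1, COX7B2 and COX8C and the gene copy UQCRHL.

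Cells were collected at day 0, day 2 and day 14, with 3 libraries per day. Every sample, day 0 included, carries the same growth text, a DMEM medium with amino acids at 20% of their usual level, serum at 0.5% and glucose at 2.5 mM, under low oxygen, with no further treatment. The labels give no undeprived cells at day 2 or day 14, so deprivation cannot be told apart from time in culture, and they do not say whether the 3 libraries of a day came from separate cultures, so p-values measure the spread between these libraries. All cells are of 1 line, and the column names of the table mark all 9 libraries as WT. Markers fixed for the line, the epithelial keratins KRT8, KRT18 and KRT19, EPCAM and the mesenchymal filament VIM, were all expressed, with summed levels of 5531 to 5935 TPM at day 0, 2657 to 2969 at day 2 and 2047 to 2385 at day 14. Of 6 fibroblast markers, COL1A1 and COL3A1 reached 1 TPM, the list summing to 10.5 to 62.8, 56.6 to 74.0 and 8.66 to 13.2 TPM at the 3 days, while COL1A2, DCN, LUM and PDGFRB stayed under 0.5 TPM in every library. Of 5 blood markers only CD68 reached 1 TPM, the list summing to 36.2 to 69.6, 22.1 to 40.6 and 41.5 to 57.02 TPM, and PTPRC and CD3E stayed under 0.5 TPM in every library, as did all acinar and islet markers. The part of these shifts in the results below was not tested. In bulk RNA, fewer cells of a kind and less RNA per cell cannot be told apart.

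The respiratory chain passes electrons from NADH (complex I) and succinate (complex II) through ubiquinone, complex III, cytochrome c and complex IV to oxygen, and ATP synthase (complex V) uses the proton gradient that complexes I, III and IV build. All subunits of complex II and most subunits of the others are encoded in the nucleus and imported, while a small core of complexes I, III, IV and V is encoded in mitochondrial DNA. Low oxygen is known to act on the chain through HIF1, which induces the isoforms COX4I2 and NDUFA4L2 in many cell types, and through loss of mitochondria by mitophagy. The transcription factors NRF1, GABPA (an ETS factor) and YY1 are known regulators of many of these genes.

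Promoters of 4 members are shown first. NDUFB10 and ATP5G1 fell at both days, COX8A fell at day 2 only by the test, and NDUFB4 did not pass the test at either day. The 4 promoters were chosen after the motif search, so motif differences between them are not a result. They come from RefSeq's GRCh38.p14 table and end before the first annotated transcript start, so they are shorter than the 250-base window used for counting. Capitals mark a CCAAT box (CCAAT or, on the other strand, ATTGG) or an NRF1 palindrome (GCGCATGCGC). All 4 lie on the plus strand, at chr16:1959288-1959507 for NDUFB10 (220 bases), chr17:48892537-48892764 for ATP5G1 (228 bases, listed as ATP5MC1), chr11:63974370-63974606 for COX8A (237 bases) and chr3:120596086-120596308 for NDUFB4 (223 bases).
NDUFB10: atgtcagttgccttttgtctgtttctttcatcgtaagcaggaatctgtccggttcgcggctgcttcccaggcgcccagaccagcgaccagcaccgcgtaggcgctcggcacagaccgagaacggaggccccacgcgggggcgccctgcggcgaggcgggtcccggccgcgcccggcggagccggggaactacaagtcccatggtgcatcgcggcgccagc
ATP5G1: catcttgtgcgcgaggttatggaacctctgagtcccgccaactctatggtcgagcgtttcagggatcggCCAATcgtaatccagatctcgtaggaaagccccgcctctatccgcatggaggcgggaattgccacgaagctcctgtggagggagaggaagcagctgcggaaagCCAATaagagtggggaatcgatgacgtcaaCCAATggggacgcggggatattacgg
COX8A: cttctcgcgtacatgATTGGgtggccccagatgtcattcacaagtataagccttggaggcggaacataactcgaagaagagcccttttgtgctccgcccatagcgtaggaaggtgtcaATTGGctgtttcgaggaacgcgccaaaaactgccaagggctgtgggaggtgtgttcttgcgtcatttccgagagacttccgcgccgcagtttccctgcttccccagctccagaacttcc
NDUFB4: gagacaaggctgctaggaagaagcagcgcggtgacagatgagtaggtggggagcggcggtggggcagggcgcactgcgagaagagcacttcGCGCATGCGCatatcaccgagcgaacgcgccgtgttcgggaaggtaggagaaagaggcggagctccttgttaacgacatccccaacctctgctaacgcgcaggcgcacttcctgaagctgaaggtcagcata

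Motifs were counted on both strands in the 250 bases before the annotated start of the 73 tested members with a RefSeq entry. The ETS letters CCGGAAG were in 17 members (23.3%) against 8.52% of all 35116 promoters, and the NRF1 palindrome was in 3 members, ATP5C1, NDUFB4 and SDHD (4.11% against 1.03%). CCAAT was in 21 (28.8% against 32%), the YY1 letters AAGATGGC in 1 (1.37% against 1.36%) and ACGTG, the core of the hypoxia response element, in 16 (21.9% against 18.5%). Unlike the members, the 35116 promoters were not limited to tested genes, and the differences in percent were not tested. No motif contains another, though a promoter may hold several, and the CCGGAAG match of COX8A lies in bases that are not printed. Of the 18 matched members that fell at day 2 with all libraries, ACGTG was in 1, CCGGAAG in 4 and CCAAT in 5. The YY1 letters were in 1 and the NRF1 palindrome in 0. Among the other 55 members these 5 counts were 15, 13, 16, 0 and 3. The difference between the 2 sets was not tested. A match describes letters only and is not a binding site.

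Libraries differed in ways that touch every result below. Day 0 replicate 2 stood apart: the 95 chain genes made up 3.45% of its TPM, against 1.40% and 1.54% in the other day 0 libraries, 0.992% to 1.15% at day 2 and 1.197% to 1.49% at day 14. Relative to the mean of the other day 0 libraries, its median log2 difference was 1.05 over the 89 members and -0.58 over all 14144 tested genes. In that library 73 of the 89 members were higher than in both other day 0 libraries, against 21.9% of all tested genes. The members have short transcripts, with a median of 720 nt against 1649 nt for all tested genes. In that library tested genes of 500 to 1000 nt had a median difference of -0.23 and the 58 members of that length one of 1.197, and the part of transcript length in this shift was not tested. For counts of calls, and for many of the genes whose call, sign or size (by over 1.5 times) turns on this library, the value without it is given beside the value with it.

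At day 2 most chain genes stood below their day 0 level. In the fit of all 9 libraries 23 of 89 fell and 2 rose, where 11.5% of all tested genes fell and 19.2% rose (limma on log2(TPM + 1), Benjamini-Hochberg adjusted p under 0.05). Without day 0 replicate 2, 47 fell and 2 rose, against 23.7% and 24.5% of all genes. The median log2 change was -0.77 over the members and 0.23 over all genes, a distance of -0.995; without that library the values were -0.44 and 0.02, a distance of -0.46. All 3 day 2 libraries lay below all 3 day 0 libraries for 58 members and above them for 2, where 17.4% and 33.4% of all genes did so. Leaving out day 2 replicate 1 gave 10 falls and leaving out day 2 replicate 3 gave 12. Calls of either direction over all tested genes went from 30.7% to 19.4% and 19.1% in these 2 fits. Of the 23 falls, 10 held under every alternative that was run, those of ATP5A1, ATP5G1, ATP5G3, ATP5J, NDUFAF3, NDUFAF4, NDUFAF8, NDUFB10, NDUFS5 and NDUFV2.

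By day 14 fewer members differed from day 0. The test found 9 lower and 2 higher, where 6.72% of all tested genes fell and 27.5% rose, and 21 lower and 5 higher without day 0 replicate 2, against 14.6% and 34.5%. The median log2 change was -0.48 against 0.44 over all genes; without that library it was -0.11 against 0.24, with 52 of 89 members below 0. Libraries of the 2 days did not overlap for 27 members that were lower and 5 that were higher, against 9.95% and 42.5% of all genes. Of the 9 falls, 7 held under every alternative run, those of ATP5A1, ATP5G1, ATP5G3, NDUFB10, NDUFS5, NDUFV2 and UQCRC1. Scaling changed the split, with 22 falls and 1 rise after quantile normalization and 29 and 2 with a transcript length trend removed. These 2 settings also moved the median change of all tested genes, from 0.44 to -0.01 and 0.02. Leaving out day 0 replicate 1 gave 14 falls. Calls of either direction over all tested genes covered 34.2% in the main fit and 34.4%, 35.2% and 34.5% in these 3 alternatives.

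**Figure D1:**
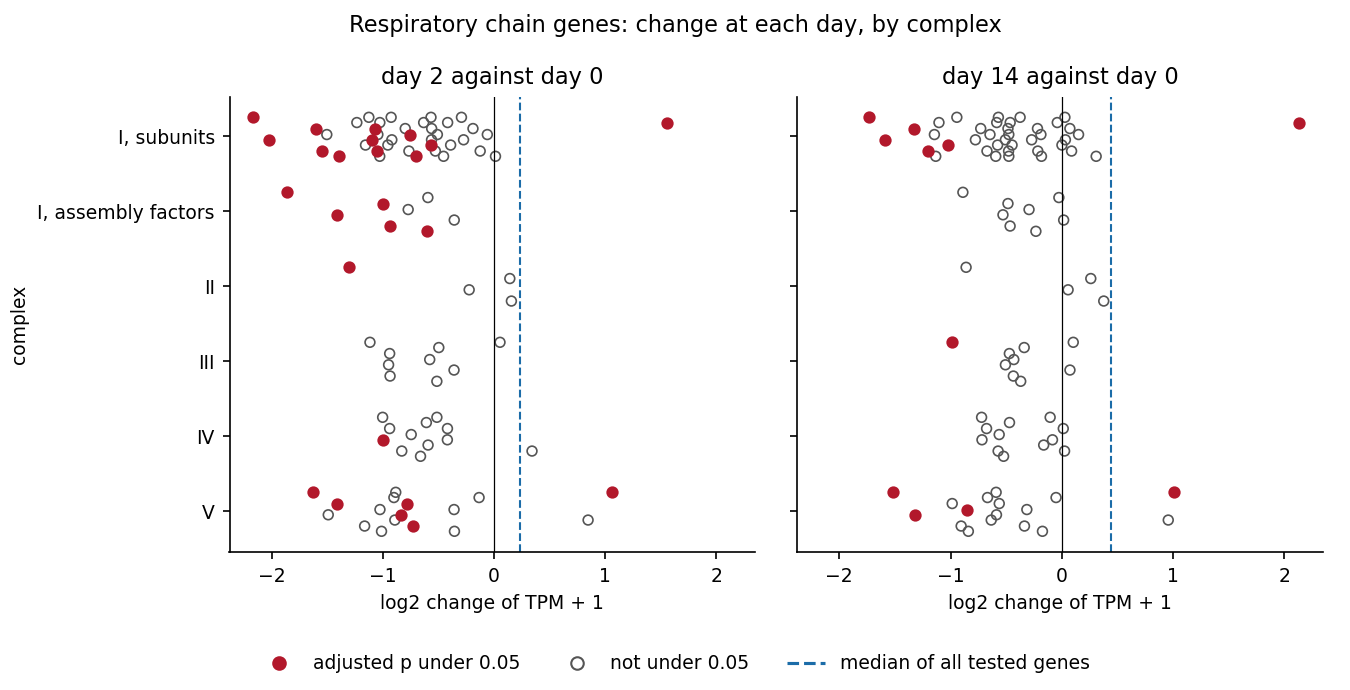
Log2 change of TPM + 1 (horizontal axis) of each of the 89 tested genes at day 2 and at day 14 against day 0, by complex (vertical axis). ATP5S is drawn with complex V, and NDUFA4 and NDUFA4L2 with complex I. Filled points passed the adjusted p of 0.05, open points did not, and the dashed line is the median of all tested genes, 0.23 and 0.44; most points lie left of it at both days.

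**Figure D2:**
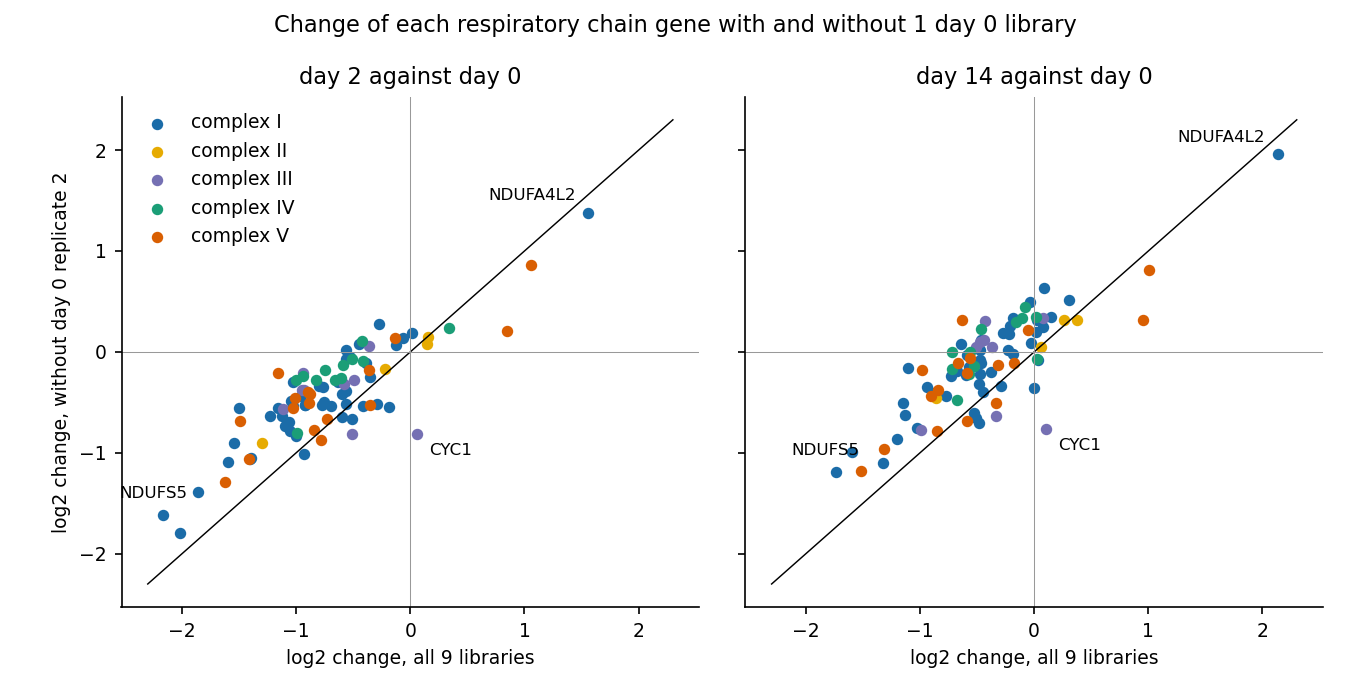
Log2 change of each tested gene from all 9 libraries (horizontal axis) and without day 0 replicate 2 (vertical axis), coloured by complex, with the line of equality. Most points with a negative change lie above the line, closer to 0 without that library, whereas CYC1 lies far below it, at 0.05 with the library and -0.81 without it at day 2.

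Complex I, the largest complex and the entry point for electrons from NADH, had 39 tested subunit symbols. Of these, 11 fell and 1 rose at day 2 and 5 fell and 1 rose at day 14. The 39 were taken by symbol and include NDUFA4, now assigned to complex IV, and NDUFA4L2, which was the 1 rise at each day. Without day 0 replicate 2 the counts were 24 and 1, and 9 and 4. The median log2 change was -0.77 at day 2 (-0.52 without that library) and -0.48 at day 14 (-0.16 without it). At day 2, 4 of 10 subunits of the N module, which holds the NADH site, fell (6 without day 0 replicate 2). In the membrane arm, which pumps protons, 5 of 21 fell (13 without that library). The Q module between them reduces ubiquinone. Of all tested genes, 11.5% fell and 19.2% rose at day 2, and 6.72% fell and 27.5% rose at day 14. Leaving out day 0 replicate 2, these shares were 23.7% and 24.5% at day 2, and 14.6% and 34.5% at day 14.

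NDUFS5 and NDUFB10, accessory subunits of the membrane arm, had the largest falls of any member at day 2. NDUFS5 stood at 329.9, 1042 and 338.1 TPM in the day 0 libraries (replicates 1 to 3), at 119.0, 108.7 and 97.8 at day 2 and at 147.0, 139.6 and 151.0 at day 14. Every library of day 2 and of day 14 was below every day 0 library, and day 14 lay above day 2 without overlap. The log2 change was -2.16 ± 0.40 (SE; adjusted p = 0.00485) at day 2 and -1.74 ± 0.40 (adjusted p = 0.0116) at day 14, and -1.62 and -1.19 without day 0 replicate 2. NDUFB10 stood at 159.3, 288.6 and 201.6 TPM at day 0, 41.9, 62.03 and 51.3 at day 2 and 101.8, 65.1 and 86.7 at day 14. Its libraries separated the days in the same order as for NDUFS5, with day 2 lowest and day 0 highest. The log2 change was -2.02 ± 0.27 (adjusted p = 0.00124) at day 2 and -1.33 ± 0.27 (adjusted p = 0.00729) at day 14, and -1.79 and -1.10 without day 0 replicate 2. Both comparisons with day 0 share the same 3 day 0 libraries.

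In the N module the flavoprotein subunits that take electrons from NADH fell at both days. NDUFV2, which carries an iron-sulfur cluster, stood at 107.7, 227.0 and 114.9 TPM at day 0, 47.4, 58.0 and 54.4 at day 2 and 63.0, 60.1 and 59.6 at day 14. Day 0 did not overlap the later days, and the change was -1.39 ± 0.27 (adjusted p = 0.00637) at day 2 and -1.2 ± 0.27 (adjusted p = 0.0113) at day 14. NDUFV1, which holds the NADH and FMN sites, stood at 99.4, 189.3 and 117.4 TPM at day 0, 56.6, 71.0 and 60.3 at day 2 and 80.6, 53.7 and 59.2 at day 14. Its changes were -1.05 (adjusted p = 0.0184) and -1.03 (adjusted p = 0.0190), but without day 2 replicate 1 or 3, or without day 14 replicate 2 or 3, the call of that day was lost, with a highest adjusted p of 0.0691 and 0.0705. NDUFS1, the large iron-sulfur subunit beside them, stood at 43.4, 21.2 and 47.6 TPM at day 0 and 29.6 to 38.4 later, and did not pass the test (log2 change -0.19 and 0.00). NDUFS1 fell at both days without day 0 replicate 2, its lowest library, by 0.54 at day 2 (adjusted p = 0.00562) and by 0.35 at day 14 (adjusted p = 0.0319). NDUFS6 and NDUFA12, late-joining accessory subunits, also fell at day 2, by 1.60 and 0.70 on the log2 scale; the call of NDUFS6 was lost without day 2 replicate 1 or 3 (highest adjusted p 0.0712) and that of NDUFA12 without any 1 of 5 libraries (0.117).

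Among Q module subunits, which form the path to ubiquinone, NDUFS8 fell at day 2 and NDUFS3 at day 14 with all libraries. NDUFS3, a core subunit of this module, stood at 66.5, 245.0 and 72.6 TPM at day 0, 44.5, 48.2 and 48.4 at day 2 and 37.9, 29.5 and 36.7 at day 14. The 3 days did not overlap and day 14 was lowest. Its change at day 14 was -1.59 ± 0.44 (adjusted p = 0.0236); at day 2 it was -1.16 (adjusted p = 0.0767). The day 14 call was lost without any 1 of the 3 day 14 libraries (highest adjusted p 0.0766). NDUFS3 passed at both days without day 0 replicate 2, with changes of -0.55 (adjusted p = 0.0101) and -0.99 (adjusted p = 0.000872). NDUFS8, a carrier of iron-sulfur clusters, fell by 1.10 at day 2, with the call lost without day 2 replicate 1 or 3 (highest adjusted p 0.0828). NDUFS7, NDUFA5 and NDUFA9 did not pass the test at either day with all libraries; without day 0 replicate 2, NDUFA9 was lower at day 2 (-0.39, adjusted p = 0.0386) and NDUFA5 higher at day 14 (0.51, adjusted p = 0.0341).

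Other membrane arm subunits covered a wide range. NDUFB3, NDUFB2 and NDUFA8 fell at day 2, by 1.54, 1.07 and 0.75 on the log2 scale, and all 3 calls were lost when single libraries were left out (highest adjusted p 0.113, 0.0976 and 0.148). All 3 passed without day 0 replicate 2, with falls of 0.90, 0.69 and 0.49. NDUFB4 stood at 250.9, 384.6 and 280.2 TPM at day 0, 273.2, 330.7 and 308.1 at day 2 and 333.5, 332.1 and 284.3 at day 14. Its days overlapped fully, with log2 changes of 0.01 (adjusted p = 0.964) and 0.07 (adjusted p = 0.794), or 0.19 and 0.25 without day 0 replicate 2. NDUFA10, related to nucleoside kinases, was the member of this arm with a day 14 level below day 2 without overlap (28.4, 30.4 and 30.6 TPM at day 2 against 24.3, 26.4 and 27.2 at day 14; log2 change -0.19, adjusted p = 0.682). Against day 0 it passed only without day 0 replicate 2, at both days (-0.52, adjusted p = 0.00664, and -0.71, adjusted p = 0.00172).

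The 8 NDUFAF assembly factors are chaperones that help build complex I and are not part of the finished enzyme. All 8 had their 3 day 2 libraries below their 3 day 0 libraries, as 17.4% of all tested genes did. At day 2, 5 passed the test both with and without day 0 replicate 2: NDUFAF3, NDUFAF4, NDUFAF6, NDUFAF7 and NDUFAF8. By limma none passed at day 14 with all libraries (1 had an unadjusted p under 0.05), and 1, NDUFAF3, passed without day 0 replicate 2. At day 14, 4 of 8 still lay below day 0 without overlap, against 9.95% of all tested genes. NDUFAF8, a partner of NDUFAF5, stood at 138.4, 392.5 and 151.7 TPM at day 0, 40.6, 67.3 and 60.4 at day 2 and 130.3, 98.1 and 100.3 at day 14. Day 2 was below both other days without overlap. The change was -1.86 ± 0.39 (adjusted p = 0.00859) at day 2 and -0.89 (adjusted p = 0.108; -0.41 without day 0 replicate 2) at day 14. NDUFAF4, which works with NDUFAF3 on the Q module, stood at 12.4, 27.5 and 13.1 TPM at day 0, 6.03, 6.29 and 4.62 at day 2 and 15.2, 10.4 and 10.1 at day 14. It fell by 1.41 at day 2 (adjusted p = 0.0111), while at day 14 its libraries overlapped those of day 0. NDUFAF3 fell by 0.93 at day 2 (adjusted p = 0.00626). The falls of NDUFAF6 (log2 change -1.001) and NDUFAF7 (-0.60) were each lost without some libraries, day 2 replicate 1 alone for NDUFAF6 (highest adjusted p 0.0514) and any 1 of 8 for NDUFAF7 (0.154). Among 8 further complex I assembly genes outside the NDUF names, ECSIT fell at day 2 (log2 change -1.001, adjusted p = 0.0228), a call lost without day 2 replicate 1 or 3, and by limma none passed at day 14 (1 had an unadjusted p under 0.05). Of these 8, 5 fell at day 2 without day 0 replicate 2, and 2 fell and 1 rose at day 14; the share of all tested genes that fell was 11.5% and 6.72% with that library and 23.7% and 14.6% without it. The median change of the 8 was -0.55 at day 2 and -0.16 at day 14 (-0.47 and -0.10 without that library).

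Complex II, succinate dehydrogenase, which is also an enzyme of the citric acid cycle, showed a change in 1 of its 4 subunits. SDHB, the iron-sulfur subunit, stood at 131.3, 316.4 and 142.6 TPM at day 0, 63.9, 79.5 and 75.8 at day 2 and 115.2, 90.6 and 93.7 at day 14. The 3 days did not overlap, with day 2 lowest. It fell by 1.30 ± 0.32 on the log2 scale at day 2 (adjusted p = 0.0161), a call lost without day 2 replicate 1 (adjusted p = 0.0614), and its day 14 change was -0.86 (adjusted p = 0.0664), or -0.46 without day 0 replicate 2 (adjusted p = 0.0324). SDHA, the flavoprotein that oxidises succinate, stayed between 60.2 and 87.4 TPM in all 9 libraries, day 0 replicate 2 included, with log2 changes of 0.16 (adjusted p = 0.506) and 0.06 (adjusted p = 0.814). The membrane anchors SDHC and SDHD did not pass the test at either day. Their changes were 0.14 (0.08 without day 0 replicate 2) and -0.22 at day 2 and 0.38 and 0.26 at day 14. The day 14 libraries of each lay above those of day 0, as did those of 42.5% of all tested genes. Of the 4 complex II assembly factors, SDHAF1, needed for the iron-sulfur cluster of SDHB, fell at day 2 (log2 change -1.05, adjusted p = 0.0275), a call that leaving out 1 of day 0 replicate 3 and day 2 replicates 1 and 3 ended. By limma none of the 4 passed at day 14 with all libraries (1 had an unadjusted p under 0.05). Without day 0 replicate 2, 1 fell at day 2 and 1 rose at day 14. Among all tested genes, 11.5% fell at day 2 with all libraries. Leaving out day 0 replicate 2, 23.7% fell at day 2 and 34.5% rose at day 14.

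Complex III, which passes electrons from ubiquinol to cytochrome c, had no subunit past the test at day 2 among 9 tested (1 had an unadjusted p under 0.05) and 1 at day 14, by limma with all libraries; without day 0 replicate 2, 5 fell at day 2 (CYC1, UQCRC2, UQCR11, UQCRB and UQCRH) and 3 at day 14 (CYC1, UQCRC1 and UQCRC2). The median change was -0.58 at day 2 (-0.38 without that library) and -0.43 at day 14 (0.05 without it). Of all tested genes, 11.5% fell at day 2 and 6.72% at day 14, or 23.7% and 14.6% without that library. UQCRC1, a core protein of the matrix side, stood at 145.4, 249.5 and 170.6 TPM at day 0, 123.4, 149.8 and 118.7 at day 2 and 100.7, 94.7 and 81.4 at day 14. Day 14 lay below both other days without overlap. It fell at day 14 by 0.99 ± 0.23 (adjusted p = 0.0110), and its day 2 change was -0.50 (adjusted p = 0.125; -0.28 without day 0 replicate 2). CYC1, the cytochrome c1 subunit, stood at 343.2, 62.01 and 427.0 TPM at day 0, 198.6, 259.0 and 199.3 at day 2 and 285.7, 199.2 and 199.5 at day 14. Day 0 replicate 2 was the lowest library of all for CYC1, opposite to most members, and the direction turns on it: the log2 change was 0.05 and 0.10 at days 2 and 14 with it and -0.81 (adjusted p = 0.0138) and -0.77 (adjusted p = 0.0175) without it. UQCRFS1, the Rieske iron-sulfur protein, did not pass the test (log2 changes -0.36 and -0.37), and its sign turned without day 0 replicate 2 (0.06 and 0.05).

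Of the 6 complex III assembly genes, 4 fell at day 2, and at day 14 1 fell and 1 rose. Without day 0 replicate 2, 4 fell and 1 rose at day 2, and 2 fell and 1 rose at day 14. Of all tested genes, 11.5% fell and 19.2% rose at day 2, and 6.72% fell and 27.5% rose at day 14. Leaving out that library gave 23.7% and 24.5% at day 2, and 14.6% and 34.5% at day 14. BCS1L, which inserts the Rieske protein, stood at 39.3, 34.1 and 40.1 TPM at day 0, 14.9, 15.4 and 12.8 at day 2 and 31.6, 23.4 and 18.0 at day 14. Its days did not overlap, and day 0 replicate 2 was close to the other day 0 libraries. The change was -1.34 ± 0.22 (adjusted p = 0.00293) at day 2 and -0.65 (adjusted p = 0.0489) at day 14, the latter lost under 12 alternatives. UQCC3, which stabilises early assembly forms, fell by 1.61 at day 2 (adjusted p = 0.0169), a call lost without day 2 replicate 1 or 3. TTC19, which acts after the Rieske protein is in place, rose at day 14 from 15.8, 16.7 and 15.1 to 29.3, 30.6 and 27.1 TPM (log2 change 0.83, adjusted p = 0.00403), a call lost with median-ratio scaling and with quantile normalization. Without day 0 replicate 2 TTC19 also rose at day 2 (0.32, adjusted p = 0.028).

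Complex IV, cytochrome c oxidase, which reduces oxygen, had 1 fall among 12 tested subunits and isoforms at day 2 and none at day 14 by limma (1 had an unadjusted p under 0.05 at day 14 with all libraries), and the same counts without day 0 replicate 2. The median change was -0.63 at day 2 (-0.21 without that library) and -0.50 at day 14 (0.00 without it), against 0.23 and 0.44 over all genes. By the test 11.5% and 6.72% of all tested genes fell at these days, or 23.7% and 14.6% without that library. NDUFA4 was counted with complex I by its symbol. COX8A, the widely expressed isoform of the smallest nuclear-encoded subunit family, stood at 459.8, 799.8 and 612.8 TPM at day 0, 302.0, 341.7 and 273.6 at day 2 and 463.9, 367.6 and 323.0 at day 14. Day 2 lay below day 0 without overlap, and day 14 replicate 1 reached into the day 0 range. The change was -0.997 ± 0.24 (adjusted p = 0.0148) at day 2, lost without day 2 replicate 1 or 3 (highest adjusted p 0.0610), and -0.68 (adjusted p = 0.0573) at day 14. COX5A and COX5B did not pass the test, with changes of -0.42 and -0.42 at day 2 and 0.01 and -0.08 at day 14. They were, without day 0 replicate 2, -0.09 and 0.11 at day 2 and 0.34 and 0.44 at day 14, so the sign of COX5B turned at both days; none of these passed.

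Among 23 complex IV assembly genes 3 fell and 2 rose at day 2, and 3 rose at day 14, where 11.5% of all tested genes fell and 19.2% rose at day 2 and 27.5% rose at day 14. Leaving out day 0 replicate 2, 9 fell and 3 rose at day 2, and 1 fell and 5 rose at day 14, against 23.7%, 24.5%, 14.6% and 34.5% of all genes. CMC2 fell by 1.73 (adjusted p = 0.00621) and COA3, which acts on MT-CO1 synthesis, by 1.23 (adjusted p = 0.0140) at day 2. COX19, a copper-handling factor, rose from 4.25, 6.49 and 4.46 TPM to 13.3, 14.9 and 13.4 at day 2 (log2 change 1.31, adjusted p = 0.00500) and stood at 7.88, 13.2 and 13.4 at day 14 (1.03, adjusted p = 0.0131). COX20, a chaperone of MT-CO2, rose at day 14 (0.84, adjusted p = 0.00440). These rises of COX19 and COX20 were not called with median-ratio scaling or with the length trend removed. Both rises of COX19 were also lost with quantile normalization. Its day 14 rise was lost without day 14 replicate 2 or 3 and in a fit of only the 2 days. Without day 0 replicate 2 COX20 also rose at day 2 (0.46, adjusted p = 0.00491).

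Complex V, ATP synthase, had 5 falls among 16 tested subunits at day 2 and 3 at day 14, and 11 and 7 without day 0 replicate 2. The median change was -0.89 at day 2 (-0.52 without that library) and -0.61 at day 14 (-0.19 without it). Falls were called for 11.5% of all tested genes at day 2 and 6.72% at day 14, or 23.7% and 14.6% without that library. ATP5A1, the alpha subunit of the catalytic F1 head, had similar levels in all day 0 libraries. It stood at 202.6, 236.3 and 208.0 TPM at day 0, 116.0, 120.1 and 123.3 at day 2 and 131.4, 115.8 and 110.3 at day 14. Day 0 did not overlap the later days, which overlapped each other. Its log2 change was -0.84 ± 0.15 (adjusted p = 0.00419) at day 2 and -0.85 ± 0.15 (adjusted p = 0.00390) at day 14. ATP5B, the catalytic beta subunit, stood at 743.7, 535.1 and 787.4 TPM at day 0 and 480.5 to 594.3 later and did not pass the test (-0.36 and -0.34). When day 0 replicate 2, its lowest day 0 library, was left out, ATP5B fell at both days, by 0.53 (adjusted p = 0.00882) and 0.51 (adjusted p = 0.0103). In the peripheral stalk, which holds F1 still, ATP5J fell by 0.73 at day 2 (adjusted p = 0.0119). In the membrane part, ATP5J2 fell by 0.79 at day 2 (adjusted p = 0.0253; lost without any 1 of 4 libraries).

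The genes for subunit c, the ring that turns with proton flow, changed unequally. ATP5G1, ATP5G2 and ATP5G3 encode the same mature protein with different import sequences. ATP5G1 stood at 468.5, 1014 and 552.2 TPM at day 0, 184.2, 236.2 and 203.3 at day 2 and 301.8, 190.0 and 194.5 at day 14, and fell by 1.63 ± 0.31 (adjusted p = 0.00576) and 1.51 ± 0.31 (adjusted p = 0.00744). ATP5G3 stood at 63.6, 137.3 and 67.8 TPM at day 0, 27.4, 33.7 and 32.0 at day 2 and 33.2, 34.1 and 32.2 at day 14, and fell by 1.41 ± 0.28 (adjusted p = 0.00670) and 1.31 ± 0.28 (adjusted p = 0.00875). ATP5G2 stood at 189.3, 350.9 and 213.0 TPM at day 0, 207.4, 222.5 and 232.0 at day 2 and 265.7, 219.6 and 217.9 at day 14, with overlapping days and changes of -0.13 (adjusted p = 0.693) and -0.05 (adjusted p = 0.881), which turned to 0.13 and 0.22 without day 0 replicate 2.

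As shares of the 3 genes' summed TPM, which do not depend on how a library is scaled, ATP5G1 made up 64.9%, 67.5% and 66.3% at day 0, 43.96%, 47.97% and 43.5% at day 2 and 50.2%, 42.8% and 43.7% at day 14. ATP5G2 made up 26.3%, 23.4% and 25.6% at day 0, 49.5%, 45.2% and 49.6% at day 2 and 44.2%, 49.5% and 49.0% at day 14. Neither share overlapped between day 0 and the later days, and day 0 replicate 2 lay close to the other day 0 libraries. From these values ATP5G1 was the most abundant of the 3 at day 0 in all 3 libraries, and at day 2 ATP5G2 was higher than ATP5G1 in replicates 1 and 3 and lower in replicate 2. No test was planned for these shares.

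ATP5S, named for an ATP synthase coupling factor and since renamed DMAC2L, was 1 of the 2 members that rose. It stood at 4.81, 3.32 and 6.28 TPM at day 0, 9.29, 11.3 and 12.2 at day 2 and 11.5, 11.2 and 8.76 at day 14. Both later days lay above day 0 without overlap, with log2 changes of 1.06 ± 0.23 (adjusted p = 0.0105) and 1.01 ± 0.23 (adjusted p = 0.0120); the day 14 call was lost with quantile normalization (adjusted p = 0.0919). Of 6 genes for complex V assembly and regulation, TMEM70, which helps build the c ring, fell by 0.97 at day 2 (adjusted p = 0.0137). By limma none passed at day 14 (0 at an unadjusted p under 0.05). The counts were the same without day 0 replicate 2. Among all tested genes 11.5% fell at day 2 and 6.72% at day 14, or 23.7% and 14.6% without that library.

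**Figure D3:**
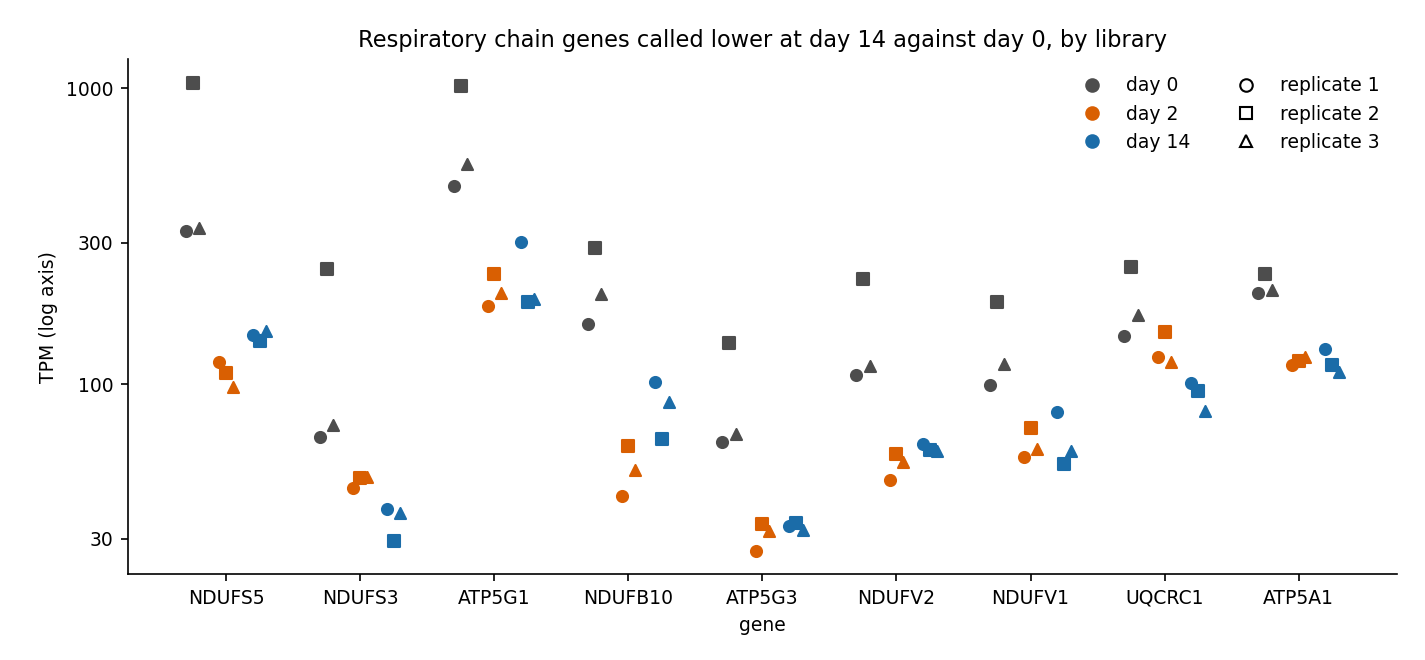
TPM (log axis) in each of the 9 libraries for the 9 genes that passed the test as lower at day 14, ordered by the size of the fall, with colour for the day and symbol for the replicate. Day 0 lies above day 14 for each gene, and day 0 replicate 2 is the highest library of each.

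The balance between complexes was compared as the share of each complex in the summed TPM of all subunits within a library. Complexes were assigned by symbol, so NDUFA4 and NDUFA4L2 counted with complex I. Complex IV made up 28.4% ± 1.25 (SD, n = 3) at day 0, 31.7% ± 0.427 at day 2 and 31.3% ± 0.254 at day 14, and its later libraries were all above its day 0 libraries. Complex V made up 25.8% ± 0.671, 23.6% ± 0.822 and 22.4% ± 0.429, with later libraries all below day 0. Complex I went from 34.7% ± 1.03 to 32.5% ± 0.453 at day 2 without overlap and stood at 34.2% ± 0.6002 at day 14. Complex II lay above its day 0 range at both later days, going from 2.06% ± 0.464 to 2.56% ± 0.0745 and 2.62% ± 0.0423. Complex III overlapped between days (9.11% ± 1.17, 9.65% ± 0.274 and 9.46% ± 0.0577). Day 0 replicate 2 was the lowest day 0 library of both. It held 1.53% for complex II, against 2.39% and 2.27%, and 7.77% for complex III, against 9.80% and 9.77%. Both later means of complex III lay below these other day 0 libraries. For complex I it was the highest, with 35.8% against 34.0% and 34.1%. These shares are a description without a test, since 3 libraries against 3 cannot reach an exact permutation p under 0.10.

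**Figure D4:**
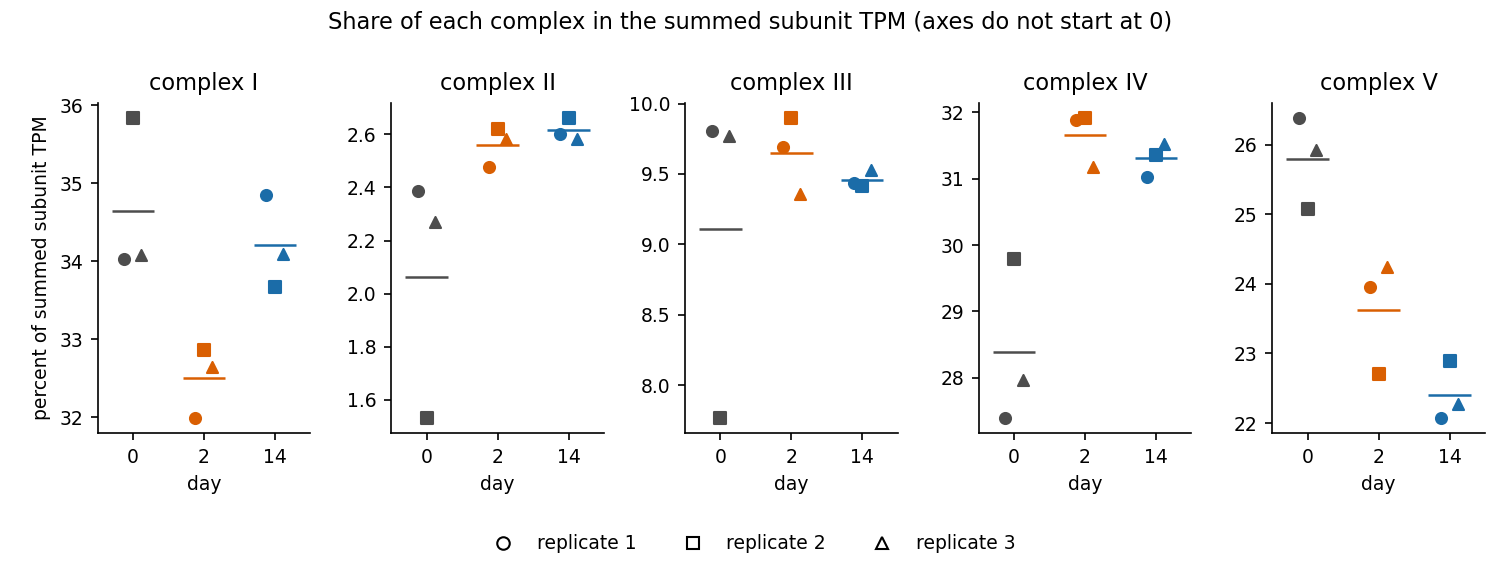
Share of each complex in the summed TPM of all subunits (percent, axes not starting at 0) by day, with NDUFA4 and NDUFA4L2 in complex I. Points are libraries, with the symbol for the replicate, and lines are means of 3. Complex IV is higher and complex V lower at days 2 and 14 than in any day 0 library.

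Isoform pairs linked to low oxygen behaved differently from each other. NDUFA4L2, a known HIF1 target related to NDUFA4, was the other member that rose: 0.665, 0.172 and 0.722 TPM at day 0, 3.97, 2.76 and 3.57 at day 2 and 6.01, 5.87 and 4.90 at day 14. The 3 days did not overlap. Its log2 change was 1.56 ± 0.21 (adjusted p = 0.00115) at day 2 and 2.13 ± 0.21 (adjusted p = 0.000388) at day 14, and because of the low level this scale understates the change. NDUFA4, which is now assigned to complex IV despite its name, stood at 94.9, 71.2 and 86.9 TPM at day 0, 57.9, 63.7 and 66.1 at day 2 and 98.2, 78.7 and 81.4 at day 14 and did not pass the test (-0.42, adjusted p = 0.101, and 0.03, adjusted p = 0.896). NDUFA4 fell at day 2 without day 0 replicate 2 (-0.53, adjusted p = 0.0108) and its day 14 change was -0.08. The day 14 sign also turned with median-ratio scaling (-0.57, adjusted p = 0.0474).

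NDUFA4L2 made up 0.587% of the pair's TPM at day 0, 5.23% at day 2 and 6.13% at day 14, so NDUFA4 stayed the main form by far. Day 0 shares ran from 0.241% to 0.824%, day 2 shares from 4.16% to 6.41% and day 14 shares from 5.68% to 6.94%. Both later days differed from day 0 with an exact permutation p of 0.1 (two-sided, 3 against 3), the smallest this design allows, and an adjusted p of 0.3 over 6 tests; day 14 against day 2 gave an exact p of 0.4.

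COX4I2, the isoform that replaces COX4I1 under low oxygen in some tissues, was listed at 0 in 6 of 9 libraries and at 0.0897, 0.286 and 0.138 TPM in the others, 1 at each day. COX4I1 stood at 325.0, 1075 and 364.1 TPM at day 0, 267.7, 322.2 and 262.0 at day 2 and 345.4, 280.6 and 292.4 at day 14, so COX4I2 was at most 0.107% of the pair in any library. The exact permutation p of the share was 1 in each comparison, which with 1 library above 0 per day and a smallest possible p of 0.1 says nothing about a change. The log2 change of COX4I1 was -0.83 (adjusted p = 0.152) and -0.72 (adjusted p = 0.194), or -0.28 and -0.17 without day 0 replicate 2, its highest library.

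The remaining isoform families kept 1 dominant form in every library. The heart and muscle forms COX6A2 and COX7A1 stayed at or below 1.30 and 1.21 TPM, against at least 486.6 TPM for COX6A1 and 159.2 for COX7A2. COX6B2, a testis form, ran from 1.25 to 2.81 TPM against at least 438.4 for COX6B1, COX7B2 was listed at 0 in 8 libraries, and COX8C was listed at 0 in all 9. COX7A2L, which joins complexes III and IV into supercomplexes, made up 25.7% to 30.9% of the COX7A family's TPM at day 0, 30.9% to 35.4% at day 2 and 35.5% to 36.8% at day 14. Its own level did not pass the test (-0.51 and -0.10); without day 0 replicate 2 the changes were -0.07 and 0.34 (adjusted p = 0.0533 at day 14), so the day 14 sign turned. ATP5L2, an intronless copy of ATP5L, stayed between 0.0737 and 4.49 TPM and did not pass the test (0.85 and 0.96, or 0.21 and 0.32 without day 0 replicate 2).

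**Figure D5:**
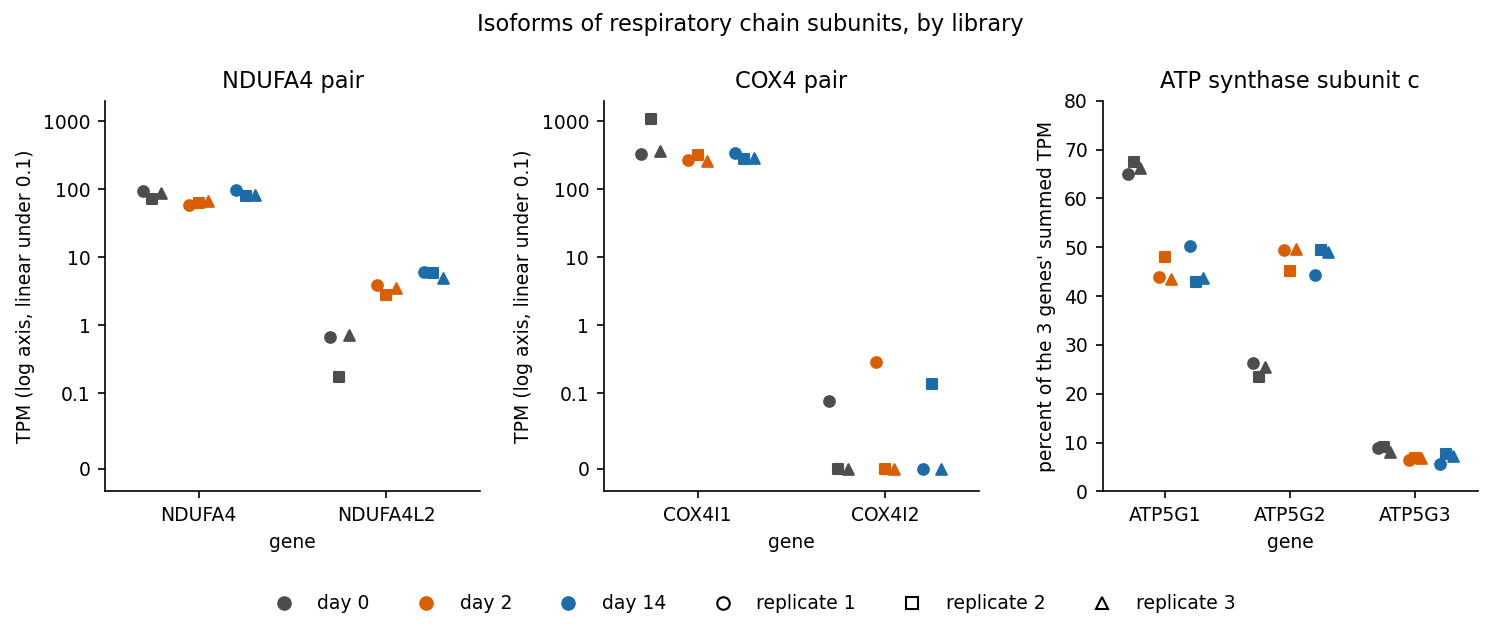
TPM of the NDUFA4 and COX4 pairs (log axis, linear under 0.1) and percent of the summed TPM of the 3 subunit c genes, in each of the 9 libraries, with colour for the day and symbol for the replicate. NDUFA4L2 rises at days 2 and 14, COX4I2 stays at or near 0, and ATP5G2 draws level with ATP5G1 after day 0.

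Between day 2 and day 14 no member passed the test with all libraries, where 0.205% of all genes fell and 0.212% rose by limma; 10 members had an unadjusted p under 0.05. Without day 0 replicate 2, which narrows the shared estimate of spread and leaves the means of both days as they are, 31 rose and 2 fell, against 23.4% and 3.82% of all genes. The median change was 0.34 over the members and 0.24 over all genes. All day 14 libraries lay above all day 2 libraries for 44 of 89 members and below for 3, against 36.8% and 7% of all genes. The 2 falls without that library were NDUFS3 (log2 change -0.44, adjusted p = 0.0315) and UQCRC1 (-0.49, adjusted p = 0.0322). The largest rises without it were in NDUFAF8 (0.97, adjusted p = 0.0166) and NDUFAF4 (0.94, adjusted p = 0.0130).

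Genes that serve the chain as a whole were taken from fixed lists. Among 16 genes of electron carriers and ubiquinone synthesis, 5 fell and 1 rose at day 2, and 4 fell and 2 rose at day 14. Without day 0 replicate 2 these were 7 and 1, and 4 and 3. Of all tested genes, 11.5% fell and 19.2% rose at day 2, and 6.72% fell and 27.5% rose at day 14. Leaving out that library gave 23.7% and 24.5% at day 2, and 14.6% and 34.5% at day 14. SQOR, which feeds electrons from sulfide into ubiquinone, stood at 71.0, 174.5 and 69.8 TPM at day 0, 24.9, 24.9 and 23.7 at day 2 and 32.4, 21.2 and 25.6 at day 14 (log2 change -1.92 and -1.83, adjusted p = 0.00431 and 0.00516). PDSS1, which makes the ubiquinone side chain, fell from 6.83, 5.72 and 7.30 TPM to 0.907, 1.23 and 1.46 at day 2 and 1.87, 1.64 and 1.83 at day 14 (-1.79 and -1.45, adjusted p = 0.000298 and 0.000763). COQ7, a hydroxylase of the same pathway, rose at day 2 (1.04, adjusted p = 0.00599). CYCS, cytochrome c itself, did not pass the test (-0.54 and -0.30, or -0.14 and 0.10 without day 0 replicate 2).

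Of 10 genes that maintain and transcribe mitochondrial DNA, 3 fell at day 2, and 1 fell and 2 rose at day 14. Without day 0 replicate 2, 5 fell at day 2, and 1 fell and 3 rose at day 14. Of all tested genes, 11.5% fell and 19.2% rose at day 2, and 6.72% fell and 27.5% rose at day 14. Leaving out that library gave 23.7% and 24.5% at day 2, and 14.6% and 34.5% at day 14. TFB2M, a mitochondrial transcription factor, stood at 21.5, 17.9 and 23.4 TPM at day 0, 20.9, 21.0 and 22.2 at day 2 and 49.3, 37.2 and 39.5 at day 14 (log2 change at day 14 0.97, adjusted p = 0.00462; not called with median-ratio scaling). TFAM, which packages that DNA, rose by 0.50 at day 14 (adjusted p = 0.0424), a call lost under 13 alternatives and turned in sign with median-ratio scaling (-0.08). Among 8 transcriptional regulators of respiratory genes, 6 were tested; GABPA rose at both days (0.76 and 1.02, adjusted p = 0.0441 and 0.0131) and YY1 at day 14 (0.78, adjusted p = 0.0434), the rise of YY1 and the day 2 rise of GABPA lost under 13 and 12 alternatives and the day 14 rise of GABPA with the length trend removed. Without day 0 replicate 2 the day 2 rise of GABPA was 0.49 and the rise of YY1 0.51, and of the 6 genes 2 fell and 1 rose at day 2, and 1 fell and 2 rose at day 14. PPARGC1A, a coactivator of mitochondrial biogenesis, was under 0.5 TPM in every library.

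Of 10 hypoxia-linked mitochondrial regulators 5 rose and 1 fell at each of days 2 and 14, where 19.2% and 27.5% of all tested genes rose. Without day 0 replicate 2, 5 rose and 1 fell at day 2, and 7 rose and 1 fell at day 14, against rises of 24.5% and 34.5% of all genes. With all libraries 5 of the 10 had a log2 change below 0 at day 2 and 3 at day 14. BNIP3, a mitophagy receptor, stood at 28.95, 31.3 and 29.7 TPM at day 0, 318.3, 293.8 and 343.8 at day 2 and 116.7, 280.8 and 279.6 at day 14 (log2 change 3.36 and 2.76, adjusted p = 0.000307 and 0.000743). PDK1, a kinase that inhibits pyruvate dehydrogenase, rose from 2.20, 2.64 and 2.69 TPM to 27.1, 29.8 and 32.7 at day 2 and 9.31, 20.4 and 25.6 at day 14 (3.14 and 2.37, adjusted p = 0.000417 and 0.00148). LONP1, a protease that degrades COX4I1 in low oxygen, rose by 1.24 and 1.004 (adjusted p = 0.00115 and 0.00295), the latter not called with median-ratio scaling or with the length trend removed. CHCHD2, a twin-cysteine protein that binds complex IV, fell by 1.46 and 1.05 (adjusted p = 0.00824 and 0.0278). Its day 14 call was lost without day 14 replicate 2 or 3 and in a fit of only the 2 days. Without day 0 replicate 2 CHCHD2 fell by 1.08 and 0.67. HIGD1A did not pass the test (-0.65 and -0.01, or -0.33 and 0.31 without that library). Day 0 replicate 2 was close to the other day 0 libraries for BNIP3 and PDK1.

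The 7 other symbols found by the rule are not subunit genes. NDUFV2-AS1, an RNA antisense to NDUFV2, stood at 0.982, 1.15 and 0.355 TPM at day 0, 2.74, 6.42 and 5.52 at day 2 and 2.49, 2.50 and 4.37 at day 14 and passed the test as higher at both days (log2 change 1.66 and 1.17, adjusted p = 0.00562 and 0.0222), opposite to NDUFV2. Whether the quantification used strand is not given in the sources used here, so reads of the 2 genes cannot be told apart. NDUFA6-AS1 and the readthrough NDUFC2-KCTD14, which shares exons with NDUFC2, did not pass the test at either day. ATP5J2-PTCD1, NDUFB2-AS1, NDUFAF4P1 and UQCRBP1 were too low to test. Many small subunits have near-identical processed copies in the genome, as UQCRH and UQCRHL do, and how reads were divided among such copies is not known here.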

How the data were processed

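RNA sequencing libraries of 9 PANC-1 samples, 3 each at day 0, day 2 and day 14, were analysed from 1 table of TPM per gene symbol. Per the submitters' processing notes, the authors made these TPM values with Salmon and used hg19; annotation, strand setting and read filters are not given in the sources used here. This unit is scaled per transcript length to the same sum in each library, so depth is unknown and values are relative. Columns were assigned by the day and replicate number in their names, and 0 columns belonged to other samples.

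Members were matched by symbol, and transcript lengths and promoters came from GENCODE v29 and RefSeq tables of GRCh38, without mixing coordinates with hg19. Values were tested as log2(TPM + 1) for 14144 genes that reached 1 TPM in 3 or more libraries, with limma 3.58.1 in R 4.3.3: 1 fit of all 9 libraries, an intensity trend, two-sided, Benjamini-Hochberg adjusted over all tested genes of a comparison at 0.05. Fold changes on this scale understate changes of low genes. Isoform shares were tested by exact permutation over libraries. The fit was tested on simulated data.

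Named genes were all isoform family members, up to 3 called falls and rises per complex and comparison, core subunits fixed by name, and up to 2 called rises and falls of each other list; other members were named after their values had been seen. The members and lists were chosen with earlier results of these data known. Alternatives covered pseudocounts, filters, scaling, limma options, a replicate block and leaving out each library. No library was imputed or dropped from the results unless stated. The values of 1 member are not reported here.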

Additional observations from a re-analysis of the deposited data

How the results depend on the processing

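The number of chain genes called lower at day 2 (23) ranged from 10 to 47 when single libraries were left out. It was 63 with array weights and 15 in a fit of only the 2 days. Calls of either direction over all tested genes went from 30.7% to 63.5% and 22% in these 2 fits. Without single libraries they covered 19.1% to 48.2%. At day 14 the 9 lower calls became 7 to 21 without single libraries, 21 with median-ratio scaling, 22 with quantile normalization, 29 with array weights, 17 without microRNA and small nucleolar RNA symbols and 29 with the transcript length trend removed, the last 2 chosen after seeing the data. The 2 higher calls stayed 2 at day 2 without any 1 library and were 2 to 5 at day 14; keeping genes with a mean from 5 TPM up gave 1 at each day, as NDUFA4L2 was not tested there, quantile normalization 1 and array weights 6 at day 14. Between days 2 and 14, calls ranged from 0 to 2 lower and 0 to 31 higher without single libraries, with 2 lower and 33 higher by array weights and 18 higher in the fit of 2 days. At day 14 calls of either direction over all tested genes covered 34.2% in the main fit and 22.6% to 49% without single libraries. Median-ratio scaling gave 33.4%, quantile normalization 34.4% and array weights 59.8%. Leaving out microRNA and small nucleolar RNA symbols gave 27.4% and removing the length trend 35.2%. Between days 2 and 14 the main fit called 0.417%, array weights 35.7%, the fit of 2 days 17.8% and fits without single libraries 0.00707% to 27.2%. The cause of these shifts was not tested.

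CYC1 turned negative at day 2 and day 14 with array weights (-0.93 and -0.90) and without day 0 replicate 2 (-0.81 and -0.77), and without single libraries its values ran up to 0.57 and 0.62. NDUFS1 at day 14 turned negative with median-ratio scaling (-0.58), array weights (-0.41), without day 0 replicate 2 (-0.35) and with the length trend removed (-0.46), and reached 0.21 without another library; NDUFA4 at day 14 turned with median-ratio scaling (-0.57) and without day 0 replicate 2 (-0.08), and TFAM at day 14 with it (-0.080). The COX4I2 share differed by -0.0092 to 0.0441 percentage points at day 2, -0.0092 to 0.0164 at day 14 and -0.0369 to 0.0164 between them without single libraries, changing sign in each, and the NDUFA4L2 share by 4.05 to 5.18, 5.14 to 5.77 and 0.361 to 1.49.

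Deviations of same-numbered libraries correlated at -0.0795 to 0.0154, which shows no sign of pairing by replicate number but cannot exclude it. With the replicate block 17 genes were lower and 2 higher at day 2, 9 and 2 at day 14, and 0 and 0 between them. Calls of either direction then covered 23.3%, 26.7% and 0.0141% of all tested genes in these 3 comparisons. TPM keeps no depth, so counting error is unknown, and low isoforms such as COX4I2 cannot be called absent.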

Other observations

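Mitochondrially encoded subunits were not analysed here. The 2 microRNA symbols MIR6723 and MIR4461 together took 22.4% to 40.3% of each library's TPM: MIR6723 with 16.2% to 32.6% and MIR4461 with 0.982% to 11.2%. In GENCODE v29 transcripts the hairpin of MIR6723 is identical to the opposite strand of MT-CO1, the mitochondrially encoded core of complex IV, at 88 of 89 bases, and the hairpin of MIR4461 to the opposite strand of MT-ND4L, a complex I core subunit, at 70 of 74 bases. The hairpins are shown because the match is nearly complete, with the differing bases in capitals.
MIR6723: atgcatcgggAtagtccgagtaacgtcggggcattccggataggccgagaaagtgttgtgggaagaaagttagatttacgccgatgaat
MIR4461: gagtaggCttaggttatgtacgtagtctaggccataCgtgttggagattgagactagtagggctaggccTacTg
Day 0 replicate 2, in which the nuclear chain genes were highest, had the lowest MIR4461 share (0.982%), against 11.2% and 9.56% in the other day 0 libraries. Whether reads of mitochondrial transcripts were counted under these symbols was not tested. Leaving out microRNA and small nucleolar RNA symbols before rescaling, an alternative chosen after seeing the data, put the chain genes at 2.41%, 4.55% and 2.61% of TPM at day 0, 1.75% to 1.85% at day 2 and 1.89% to 2.12% at day 14.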
